A study of Mus musculus with 6 samples.

Results

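Neural induction was compared with growth medium in C17.2, an immortalised clonal line of mouse neural stem and progenitor cells (strain label CD1 x C57BL/6). The 2 control libraries came from cells kept in DMEM/F12 with fetal bovine serum. The 2 neural induction libraries came from cells moved to Knockout DMEM with GlutaMAX, N2 supplement and brain-derived neurotrophic factor (BDNF) at 10 ng/ml, a medium for which no serum is named. Base medium, supplements, BDNF and the lack of named serum therefore differ together, and their parts cannot be told apart. The duration of induction is not given in the sources used here. Replicates are called biological in the design text without saying whether they were separate cultures, so the tests measure only the spread between these libraries. RNA abundance was given as FPKM, a fragment count divided by transcript length and library size, and was summed over the listed transcripts of each locus. A locus is a StringTie gene model, and the loci described were chosen by 1 rule: both induction libraries lie on the same side of both controls. Of 7171 loci listed in the series, 7039 had at least 1 FPKM in at least 2 of 5 libraries, and 2196 of these met the rule. These are 4 of the series' 6 samples, and heme replicate 1, from cells of the same line treated with heme, was set beside them. Heme replicate 2 is a scaled copy of replicate 1 and was not used.

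BDNF is a neurotrophin that signals through the receptor TrkB to the MAP kinase, PI3 kinase and phospholipase C-gamma pathways. N2 is a defined supplement of insulin, transferrin, progesterone, putrescine and selenite that lets neural cells live without serum. Serum drives the SRF and YAP transcription programmes and supplies lipoprotein cholesterol, and cells without lipoprotein raise the enzymes of sterol synthesis.

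The induction libraries did not stand apart from the controls as a whole. Between control 1 and control 2 the median absolute difference over 7039 loci was 0.210 on the log2(FPKM + 1) scale. Control 1 differed from induction replicate 1 by 0.119 and from induction replicate 2 by 0.10, about as much as the 2 induction libraries differed from each other (0.104). Control 2 was the distant library, at 0.184 and 0.210 from the induction libraries and 0.205 from heme. Counts without control 2 are therefore given beside most gene lists, and leaving it out raises the share of all loci above control 1 to 36.5% and below it to 31.5%. The ratio of coverage to FPKM gave 4.14 to 4.56 gigabases of mapped sequence per library.

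**Figure D1:**
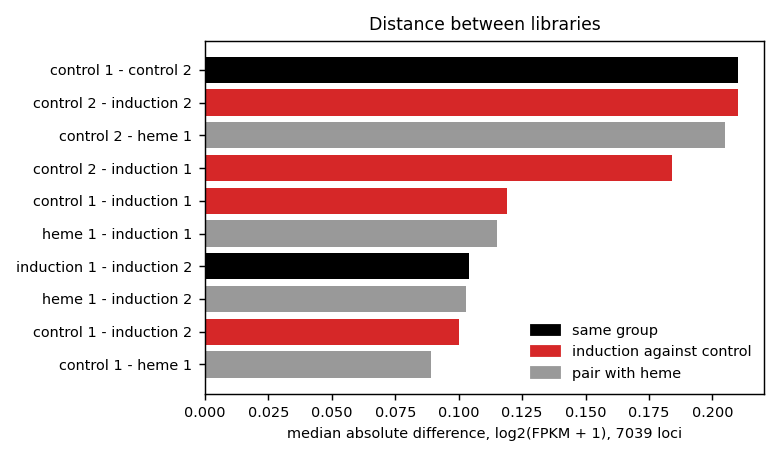
Bars give the median absolute difference in log2(FPKM + 1) over 7039 loci for each pair of the 5 libraries, coloured by whether the pair is within a group, between induction and control, or includes heme. The 2 controls are 0.210 apart, as far as control 2 and induction replicate 2, while control 1 and induction replicate 2 are 0.10 apart.

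Both induction libraries lay above both controls at 1284 of 7039 loci (18.2%) and below both at 912 (13%), 31.2% in all. Most of these separations were narrow. The nearest libraries of the groups were a median of 1.05-fold apart on FPKM + 1 in each direction, and the median log2 fold change over all loci was 0.019. A gap of at least 1.2-fold was met by 157 higher and 146 lower loci, of at least 1.5-fold by 63 and 50, and of at least 2-fold by 35 and 24. The gap was at least as large as the larger within-group difference at 327 higher loci (4.65%) and 219 lower loci (3.11%). With 2 libraries against 2, an exact permutation test of 1 locus cannot give a two-sided p below 0.333. Were the group labels exchangeable, 0.333 would also be the expected share of loci that meet the rule, beside the 31.2% that did. Meeting the rule therefore does not by itself mark a response to induction. In limma, a linear model with a spread shared across loci, 1 of 7039 loci (0.0142%) passed at an adjusted p below 0.05. That model gave 215 loci an unadjusted p below 0.05, while 5% of the loci tested is 352. The loci named below, other than that one, are therefore described by their values and did not pass the test.

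FPKM divides by transcript length, so a short transcript with few fragments can carry a sum. The counts were repeated on FPM, the FPKM of each transcript times its length in kilobases before summing, which keeps only the scaling by library size. On that scale 1285 loci were higher (18.3%) and 897 lower (12.7%), and 0 loci passed in limma, where the unadjusted p was below 0.05 for 218 and the lowest adjusted p was 0.261. Separation in both measures was kept by 1099 of the 1284 higher loci (85.6%) and by 749 of the 912 lower loci (82.1%).

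The locus that passed was Gm26712, annotated as a transcribed unprocessed pseudogene of 217 bases (chr6:57689433-57689649, minus strand, GRCm38). It stood at 25.3 and 22.2 FPKM in the controls and at 34.8 in the heme library. In the induction libraries it was at 0.179 and 0.216 FPKM, so the groups did not overlap and heme lay past the controls on the other side. Gm26712 fell by 4.36 ± 0.18 (SE) on the log2(FPKM + 1) scale (adjusted p = 0.0460 in limma). All 217 bases lie inside the 3′ UTR exon of Pyurf, which runs on the same strand (UTR chr6:57686576-57689739). Pyurf itself was not analysed here, so reads of the pseudogene and of that UTR cannot be told apart. The call was lost when limma was fitted without the heme library (adjusted p = 0.143), with a pseudocount of 0.1 FPKM (adjusted p = 0.0767) and without the filter on low values (adjusted p = 0.0751).

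Among the loci that lay higher after induction, Vps26a had the smallest unadjusted p in limma. This gene encodes a subunit of retromer, the complex that returns cargo from endosomes to the Golgi. It was at 17.1 and 16.7 FPKM in control, 16.4 with heme, and 39.0 and 41.1 after induction (log2 fold change 1.2 ± 0.096, adjusted p = 0.284 in limma). Both induction libraries were above every other library, and transcript ENSMUST00000105447 carried most of it, at 14.4 and 15.7 FPKM in control against 34.0 and 37.4. Malat1, a nuclear long noncoding RNA, was at 10.8 and 8.96 FPKM in control, 11.4 with heme, and 22 and 16.4 after induction (0.88 ± 0.20, adjusted p = 0.935 in limma). Its groups did not overlap, and the heme library lay just above the controls.

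Several of the widest higher loci had low listed sums in control. The minimum of 5 FPKM was asked only of the higher group, so such loci could qualify through induction alone. Each rests on a few of the gene's annotated transcripts (2 of 19 for Trp53bp1, 1 of 10 for Ict1, 3 of 12 for Zbtb18 and 2 of 11 for Stoml2), so the level of the whole gene is not known. Trp53bp1, a scaffold protein of the response to DNA double-strand breaks, was at 0.274 and 0.604 FPKM in control, 0.410 with heme, and 4.66 and 9.66 after induction (log2 fold change 2.44 ± 0.50). Its main listed transcript, an assembled one of 4007 bases without a name, was listed at 0 in both controls and heme. Ict1, a peptidyl-tRNA hydrolase of the mitochondrial ribosome, was at 1.01 and 1.54 FPKM in control, 1.21 with heme, and 5.70 and 14.8 after induction (2.18 ± 0.51). The 2 induction values of Ict1 lay far apart, yet both were above the controls. Zbtb18, a transcriptional repressor needed in cortical neurogenesis, was at 0.538 and 0.802 FPKM in control, 5.72 with heme, and 6.06 and 6.4 after induction (2.12 ± 0.30). The sums were alike but the transcripts were not: ENSMUST00000195612 held 5.54 FPKM of it in induction replicate 1 and 0.0112 in replicate 2, where ENSMUST00000094276 (3.33) and ENSMUST00000077225 (3.06) were listed instead. Stoml2, a scaffold protein of the mitochondrial inner membrane, was at 2.15 and 2.22 FPKM in control, 1.12 with heme, and 8.20 and 5.86 after induction (1.32 ± 0.31). It too rested on a different transcript in each induction library.

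The leading set held 6 more higher loci. D2Wsu81e was at 1.40 and 1.37 FPKM in control, 5.33 with heme, and 5.51 and 4.86 after induction (1.38 ± 0.28). Tmem230, a protein of vesicle traffic, was at 3.13 and 2.51, then 6.25 with heme, and 8.39 and 7.06. In both, heme lay nearer to induction than to control. Wdr81 (a regulator of endosomes), Sharpin (part of the linear ubiquitin ligase), Plcd1 (a phospholipase C) and Ripk1 (a kinase of cell death and NF-kappaB signalling) had log2 fold changes between 0.82 and 0.98. For Plcd1 that value was 0.83 on summed FPKM and 0.22 on FPM, and for Ripk1 it was 0.82 and 0.46. Wdr81 rested on ENSMUST00000173320 in control (2.97 and 2.01 FPKM) and on ENSMUST00000117392 after induction (5.40 and 5.50). Sharpin rests on 1 of 13 annotated transcripts and Tmem230 on 1 of 6.

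**Figure D2:**
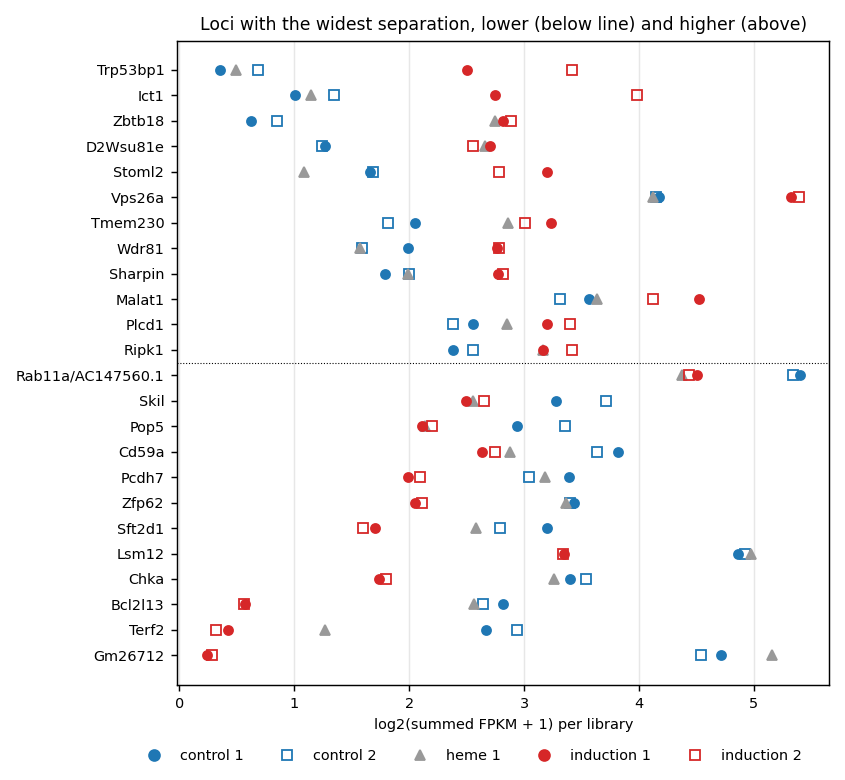
Points give log2(summed FPKM + 1) in each library for the 12 higher and 12 lower loci with a symbol and the largest log2 fold change. All had a mean of at least 5 FPKM in the higher group and a gap at least the within-group difference. Circles are replicate 1 and open squares replicate 2, in blue for control and red for induction, and grey triangles are heme replicate 1, which sits with the red points for Zbtb18 and Skil and with the blue ones for Lsm12 and Vps26a.

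Among the loci that lay lower, Lsm12, an Sm-like RNA-binding protein, had the smallest p after Gm26712. It was at 28.0 and 29.3 FPKM in control, 30.5 with heme, and 9.16 and 9.12 after induction (log2 fold change -1.55 ± 0.10, adjusted p = 0.196 in limma). Both induction libraries were below every other library, on 2 listed transcripts of 5 annotated. Chka, choline kinase alpha, which starts phosphatidylcholine synthesis, was at 9.55 and 10.6 FPKM in control, 8.56 with heme, and 2.34 and 2.48 after induction (-1.70 ± 0.20, adjusted p = 0.606 in limma). Only 1 of its 14 annotated transcripts is listed, and fragments on the others are not in this sum. Cox6c, a subunit of cytochrome c oxidase, had a higher level per length than Chka, at 186 and 187 FPKM in control, 183 with heme, and 122 and 114 after induction (-0.66 ± 0.070, adjusted p = 0.489 in limma).

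Terf2, a telomere-binding protein of shelterin, was at 5.37 and 6.68 FPKM in control, 1.40 with heme, and 0.343 and 0.250 after induction. Bcl2l13, a Bcl-2 family protein of the mitochondrial outer membrane, was at 6.04 and 5.23, then 4.92 with heme, and 0.486 and 0.475. For Bcl2l13 the heme library lay close to control, and the value rests on a 408-base transcript, 1 of 4 annotated. Zfp62, a zinc finger protein, was at 9.81 and 9.53 FPKM in control, 9.27 with heme, and 3.13 and 3.33 after induction (-1.34 ± 0.18). Pcdh7, a protocadherin of cell adhesion, was at 9.49 and 7.25, then 8.08 with heme, and 2.98 and 3.28 (-1.17 ± 0.23). Heme stayed at the control level for both of these genes. Zfp62 rests on 1 of 12 annotated transcripts, Pcdh7 on 1 of 7 and Terf2 on 2 of 8.

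For another set of lower loci the heme library lay in or near the induction range. Cd59a, an inhibitor of complement, was at 13.1 and 11.4 FPKM in control, 6.33 with heme, and 5.20 and 5.71 after induction (-1.04 ± 0.17). Skil, the SMAD co-repressor SnoN, was at 8.71 and 12.1, then 4.87 with heme, and 4.63 and 5.27 (-0.93 ± 0.23). Pop5, a subunit of RNase P, was at 6.65 and 9.22, then 3.4 with heme, and 3.33 and 3.60 (-0.99 ± 0.26). In these loci the controls stood alone above the other 3 libraries. Skil rests on 1 of 6 annotated transcripts.

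Rab11a, the GTPase of recycling endosomes, shows how a short transcript can set a sum. Its locus, shared with AC147560.1, was at 41.2 and 39.5 FPKM in control, 19.7 with heme, and 21.7 and 20.6 after induction, a log2 fold change of -0.90 ± 0.093. On FPM it was -0.091. The main Rab11a transcript was level, at 20.8 and 18.6 FPKM in control, 19.5 with heme, and 21.5 and 20.4 after induction. The rest came from AC147560.1, of 107 bases, at 20.5 FPKM in control 1 and 0.00217 in control 2, and from a 500-base Rab11a transcript at 21.0 in control 2 and listed at 0 elsewhere. The locus shared by Slc25a43 and Slc25a5, an ADP/ATP carrier of mitochondria, was at 191 and 192 FPKM in control, 302 with heme, and 319 and 305 after induction (0.70 ± 0.063, adjusted p = 0.363 in limma), and 0.23 on FPM.

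Of 766 tested loci without a gene symbol, 116 (15.1%) lay higher and 118 (15.4%) lower. MSTRG.5614 (chr13:96079256-96081366), a single assembled exon within the spans of Sv2c and Gm20075 with no strand assigned, was listed at 0 in both controls and heme and at 5.06 and 5.04 FPKM after induction. MSTRG.11548 (chr2:131170591-131180067), which overlaps Spef1 and Cenpb, was at 0.0181 and 0.0941 FPKM in control, 5.10 with heme, and 5.38 and 5.22 after induction. In that locus the heme library lay just under both induction libraries, far from the controls. MSTRG.4477 (chr12:54670901-54695821), over Eapp, was at 7.36 and 3.41 FPKM in control and listed at 0 in the other 3 libraries. MSTRG.19868, over Myo9b, was at 2.45 and 3.49, then 11.5 with heme, and 14.8 and 10.9, on transcripts that differed between the induction libraries. For loci listed at 0, a lack of reads and reads counted on transcripts outside the table cannot be told apart.

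Most loci with a wide gap were weakly expressed. The 63 higher and 50 lower loci with a gap of at least 1.5-fold had a median level of 2.28 and 2.32 FPKM over the 4 libraries, against 18.2 for all loci tested. At least 10 FPKM was reached by 7 (11.1%) and 8 (16%) of them, against 69.1% of all loci. A single listed transcript carried 42 (66.7%) and 38 (76%), against 43.7% of all. Where several transcripts were listed, the same one led in all 4 libraries at 3 of 21 higher and 4 of 12 lower loci, against 44.8% of all such loci. These values describe loci picked for their gap. Only transcripts with an FPKM variance above 1 are listed, so a weak transcript is listed only where libraries differ widely for its level. That filter ties low level to a wide gap, and the part of either was not tested. At 10 FPKM or more, the higher set was Vps26a, Slc25a43/Slc25a5, Skiv2l, Hmgn5, Ccser2, CAAA01147332.1 and Wwtr1, and the lower set Gm26712, Lsm12, Cox6c, Prpf38b, Ergic2, H13, Gm4204 and Rab11a/AC147560.1. Names in these sets outside the naming rule were chosen after their values were seen. One of them, Wwtr1, encodes TAZ, the partner of YAP, and was at 29.5 and 27.0 FPKM in control, 47.8 with heme, and 45.7 and 49.2 after induction.

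By annotation class, 1064 of 5813 protein-coding loci lay higher (18.3%) and 759 lower (13.1%), close to the shares of all loci. Of 315 pseudogene loci 88 were higher (27.9%) and 25 lower (7.94%), with a median log2 fold change of 0.038. Without control 2 these counts became 174 (55.2%) and 70 (22.2%), against 36.5% and 31.5% of all loci. Reads of a pseudogene and its parent gene may be shared, so these sums are uncertain. Of 58 long noncoding loci 8 were higher (13.8%, against 18.2% of all loci) and 5 lower (8.62%, against 13%). Of 78 small RNA loci 6 were higher (7.69%) and 4 lower (5.13%), both below those shares. Without control 2 the small RNA counts became 39 (50%) and 8 (10.3%). None of the 10 listed loci of mitochondrial DNA separated the groups, against 31.2% of all loci. Without control 2, 8 of the 10 lay above control 1 (80%, against 36.5% of all loci).

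**Figure D3:**
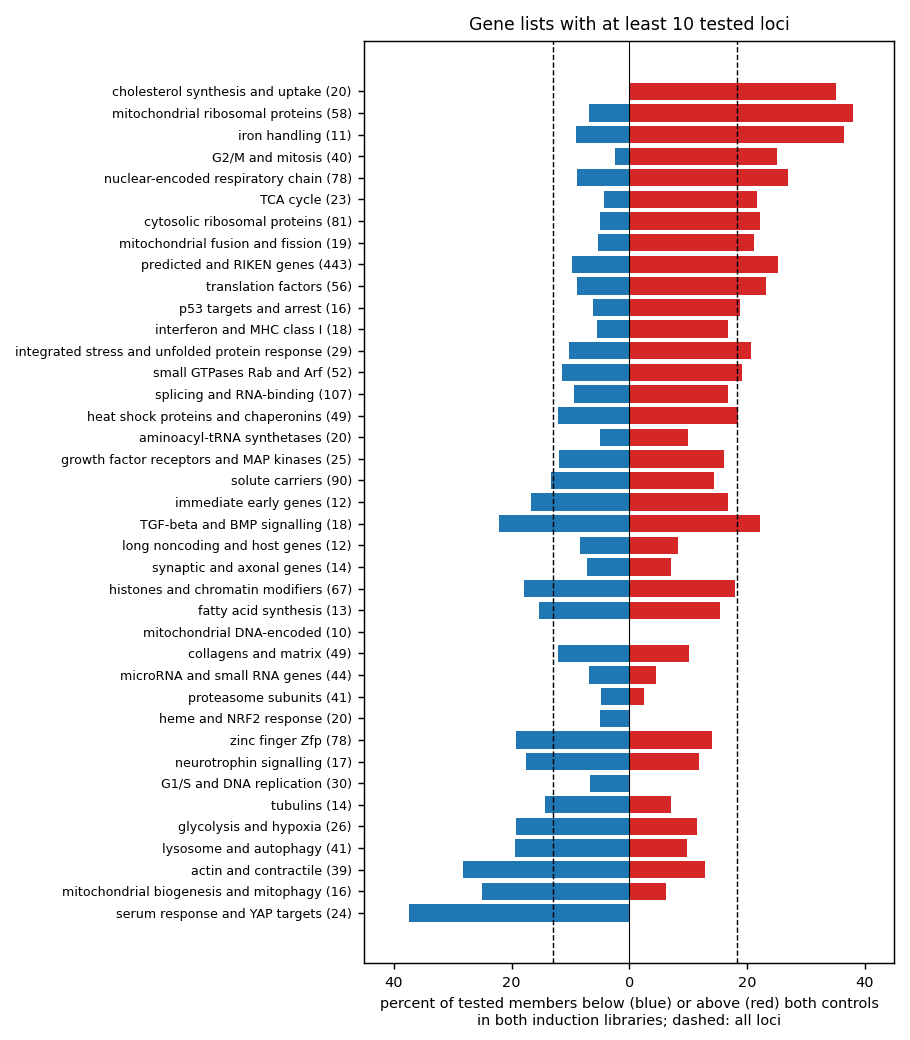
Bars give the percent of tested members of each gene list that lay below both controls in both induction libraries (blue, to the left) or above both (red, to the right), with the number of tested members in brackets. Dashed lines mark the shares among all 7039 loci, 18.2% higher and 13% lower, and the list of serum response and YAP targets has 37.5% lower and none higher.

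Markers of cell identity differed by little on summed FPKM. Nes, the intermediate filament of neural progenitors, was at 132 and 132 FPKM in control, 128 with heme, and 123 and 108 after induction (log2 fold change -0.19 ± 0.091). Sox2, a progenitor transcription factor, was at 18.7 and 13.6, then 18.6 with heme, and 19.8 and 18.9 (0.26 ± 0.18), and control 2 was its lowest library. Vim, another intermediate filament of progenitors, was at 798 and 663, then 782, and 783 and 794, with overlap. Of the neuronal markers 1 of 5 listed lay higher on summed FPKM (20%, against 18.2% of all loci), and 2 of 5 on FPM (18.3% of all loci). The marker higher on summed FPKM was Map2, a dendritic microtubule protein. Map2 was at 10.4 and 10.4 FPKM in control, 18.6 with heme, and 11.7 and 15.4 after induction (0.34 ± 0.17). On FPM its log2 fold change was 0.59, and 3 of its 24 annotated transcripts are listed. Tubb3, a neuronal tubulin, overlapped, at 12.9 and 11.3 against 11.5 and 13.6. The only listed astrocyte marker, the connexin Gja1, was at 81.5 and 70.1 in control and 87.3 and 84.8 after induction. Dcx, Gfap and Ntrk2 were not analysed here. In bulk RNA, fewer cells of a type and less RNA per cell cannot be told apart.

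Mesenchymal genes were abundant in all libraries of this neural line. Col1a1, a fibrillar collagen chain, was at 1053 and 807 FPKM in control and 1010 and 1075 after induction, and Acta2, smooth muscle actin, at 817 and 725 against 730 and 730. Of 8 listed mesenchymal markers only Col1a2 separated the groups (12.5%, against 31.2% of all loci), at 408 and 326 FPKM in control against 438 and 412. No gene of the endothelial, microglial or erythroid lists is among the loci analysed. Of 3 oligodendrocyte loci 0 separated, too few to set against the share of all loci.

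Of 17 tested loci of neurotrophin signalling, 2 lay higher and 3 lower, 11.8% and 17.6% against 18.2% and 13% of all loci. The ligand Bdnf itself was low, at 5.74 and 6.17 FPKM in control, 2.92 with heme, and 5.31 and 3.97 after induction (log2 fold change -0.31 ± 0.25). Shc1, the adapter that links Trk receptors to Ras, was at 36.3 and 36.1, then 31.7 with heme, and 30.9 and 31.0 (-0.22 ± 0.082, adjusted p = 0.935 in limma). Its 2 controls were alike, and heme lay with induction. Pik3ca, the PI3 kinase catalytic subunit, was at 8 and 8.06 FPKM in control against 7.22 and 7.24, and Map2k2, a MAP kinase kinase, at 60.8 and 64.9 against 65.0 and 68.6. For Pik3ca the log2 fold change was -0.13 on summed FPKM and -0.012 on FPM. The immediate early list had 2 of 12 loci on each side (16.7%), and without control 2 it had 8 above control 1 (66.7%, against 36.5% of all loci) and 4 below (33.3%, against 31.5%). Etv4, an ETS transcription factor induced by ERK signalling, was at 4.22 and 8.01 FPKM in control, 3.68 with heme, and 2.73 and 1.33 after induction (-1.22 ± 0.43). On FPM its groups overlapped, at 3.62 and 12.8 in control against 3.87 and 1.14 after induction. Dusp1, a MAP kinase phosphatase, was at 15.5 and 18.1 against 14.0 and 13.9. Junb and Jund, AP-1 subunits, lay on the other side, by 0.060 and 0.21.

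Targets of SRF and YAP, which serum activates, lay lower at 9 of 24 tested loci (37.5%, against 13% of all loci) and higher at 0. The same 9 were lower on FPM. Their differences were small, with a median over the 24 of -0.045 against 0.019 over all loci. Ankrd1, a nuclear ankyrin-repeat protein and YAP target, was at 54.1 and 54.9 FPKM in control, 52.7 with heme, and 46.6 and 47.0 after induction (log2 fold change -0.22 ± 0.073, adjusted p = 0.935 in limma). Cyr61, a matricellular protein now named Ccn1, was at 184 and 284, then 202 with heme, and 172 and 162 (-0.45 ± 0.22). Ctgf, its relative Ccn2, was at 162 and 213, then 184 with heme, and 153 and 146 (-0.31 ± 0.15). For both, control 2 was the highest library and heme lay within the controls. Flna, Cnn2, Ajuba, Tagln2 and Vcl, chosen after their values were seen, also lay lower. Without control 2, 19 of 24 lay below control 1 (79.2%, against 31.5% of all loci) and 3 above (12.5%, against 36.5%). Of 39 tested loci of the actin and contractile list, which shares members with it, 11 lay lower (28.2%) and 5 higher (12.8%), or 23 (59%) and 12 (30.8%) without control 2.

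YAP and its partner TAZ bind DNA through TEAD factors, which recognise GGAATG. Both strands were searched, and a match on the opposite strand is written as its complement, CATTCC. The 250 bases before the start site of Ankrd1 (chr19:36119845-36120094, minus strand) and Cyr61 (chr3:145649986-145650235, minus strand) are shown because Ankrd1 had the smallest p and Cyr61 the largest difference among the 9, from RefSeq promoters on GRCm38.p6, with each match of those letters in capitals.
Ankrd1: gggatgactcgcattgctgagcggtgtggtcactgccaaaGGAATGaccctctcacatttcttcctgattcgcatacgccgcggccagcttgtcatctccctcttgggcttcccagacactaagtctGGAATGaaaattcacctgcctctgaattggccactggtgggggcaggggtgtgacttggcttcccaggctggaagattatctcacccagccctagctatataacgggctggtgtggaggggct
Cyr61: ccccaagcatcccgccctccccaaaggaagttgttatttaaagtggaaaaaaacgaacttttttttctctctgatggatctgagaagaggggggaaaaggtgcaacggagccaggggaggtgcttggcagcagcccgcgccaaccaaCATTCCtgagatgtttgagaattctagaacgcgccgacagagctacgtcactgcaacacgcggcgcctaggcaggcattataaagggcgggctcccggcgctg
Ankrd1 holds the letters at 2 places and Cyr61 at 1. RefSeq promoters were found for 7 of the 9 lower loci, and 6 of them hold the motif on either strand (85.7%), against 4 of 11 matched members whose groups overlapped (36.4%) and 12.6% of 27025 genes. The list was drawn up from known targets of these factors, so a match is part of what put genes on it. The CArG box, which SRF binds, was found in 2 of the 7 (Cnn2 and Vcl), in 1 of the 11 and in 1.4% of all genes. A match describes letters in this window, not a bound site.

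Of 20 tested loci of cholesterol synthesis and uptake, 7 were higher (35%, against 18.2% of all loci), 0 lower and 13 overlapped, with a median log2 fold change of 0.20, and 6 of the 7 were also higher on FPM. Msmo1, a sterol methyl oxidase, was at 16.8 and 14.3 FPKM in control, 12.8 with heme, and 30.1 and 22.4 after induction (0.71 ± 0.19, adjusted p = 0.935 in limma). It is the member of the 7 that overlapped on FPM. Lss, lanosterol synthase, was at 5.84 and 7.01, then 9.28 with heme, and 9.38 and 10.1 (0.54 ± 0.18). Pmvk, phosphomevalonate kinase, was at 12.9 and 10.9, then 12.3, and 15.9 and 14.6 (0.34 ± 0.15), and Sqle, squalene epoxidase, at 38.6 and 40.3, then 43.0, and 45.4 and 44.3 (0.18 ± 0.080). The groups did not overlap for these genes, and heme lay nearer to induction than to control for Lss and Sqle. Fdps, Idi1 and Acat2 made up the 7 and were chosen after their values were seen. The synthase Hmgcs1 (58.1 and 40.3 against 57.5 and 62.5) and the sensor Insig1 (15.7 and 13.7 against 15.4 and 17.0) overlapped. Control 2 was the lowest library for both, and without it 8 of the 20 lay above control 1 (40%, against 36.5% of all loci) and 5 below (25%, against 31.5%). Without that library the list is near the shares of all loci. The sterol regulatory element TCACNCCAC was found in 0 of 5 matched promoters of the higher loci, in 1 of 9 of the others (Hmgcs1) and in 1.04% of all genes. These windows lie before RefSeq start sites. The window of Pmvk lies inside its listed locus and that of Msmo1 mostly inside it, so sequence before these 2 loci was largely not searched.

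**Figure D4:**
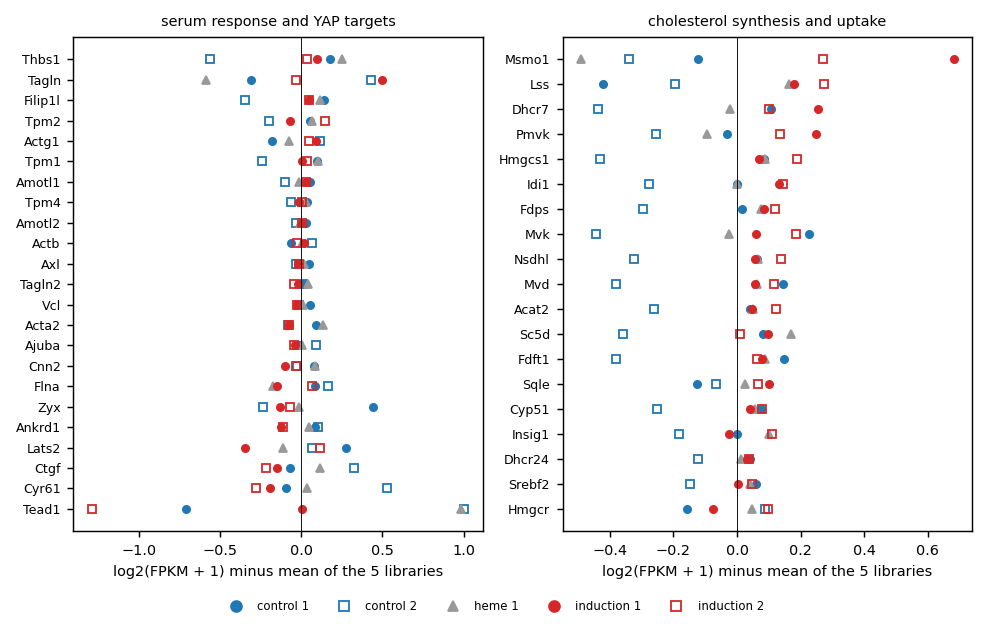
Points give log2(FPKM + 1) minus the mean of the 5 libraries for tested loci of the 2 lists, sorted by the log2 fold change of induction against control. Circles are replicate 1 and open squares replicate 2, in blue for control and red for induction, with grey triangles for heme. Control 2 lies to the left for most sterol genes and to the right for Cyr61 and Ctgf.

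Genes of G2 and mitosis were higher at 10 of 40 tested loci (25%, against 18.2%) and lower at 1 (2.5%, against 13%), with a median of 0.23. Aurkb, the kinase of the chromosomal passenger complex, was at 13.3 and 14.8 FPKM in control, 19.8 with heme, and 22.5 and 20.4 after induction (log2 fold change 0.58 ± 0.12). Cks1b, a subunit of cyclin-dependent kinases, was at 74.1 and 83.4, then 97.2 with heme, and 109 and 98.5 (0.39 ± 0.098). For both the controls were the 2 lowest libraries. Without control 2, 10 of the 40 lay above control 1 (25%, against 36.5% of all loci) and 12 below (30%, against 31.5%). Mki67, a marker of proliferation, was at 33.5 and 15.7 in control and 32.1 and 28.2 after induction. None of the 30 loci of G1 and replication was higher and 2 were lower (6.67%), and without control 2 these became 11 (36.7%) and 7 (23.3%).

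Mitochondrial ribosomal proteins lay higher at 22 of 58 tested loci (37.9%, against 18.2% of all loci) and lower at 4 (6.9%, against 13%), with a median of 0.060 against 0.019 over all loci. Without control 2 the counts became 35 (60.3%, against 36.5%) and 12 (20.7%, against 31.5%). Mrps18a was at 26.3 and 26.1 FPKM in control, 31.4 with heme, and 32.8 and 35.4 after induction (0.37 ± 0.092). Mrps10 was at 15.9 and 8.96, then 13.7, and 20.5 and 20.5 (0.73 ± 0.28). The nuclear-encoded respiratory chain had 21 of 78 higher (26.9%) and 7 lower (8.97%), with Cox6c, described above, among the 7, and without control 2 these became 42 (53.8%) and 14 (17.9%). Cytosolic ribosomal proteins had 18 of 81 higher (22.2%) and 4 lower (4.94%), higher in a share near that of all loci, and without control 2 these became 40 (49.4%) and 15 (18.5%). Rps7, of the small subunit, was at 437 and 415 FPKM in control against 552 and 507, but its difference of 0.31 became 0.024 on FPM. Mitochondrial fusion and fission had 4 of 19 higher (21.1%) and 1 lower (5.26%), with Stoml2 among the 4. Biogenesis and mitophagy had 1 of 16 higher (6.25%) and 4 lower (25%), or 6 and 5 without control 2. Among the 4 was Bnip3l, a mitophagy receptor, at 24.2 and 30 against 21.4 and 22.7.

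Some of the other lists are given by their counts, and not all of the 48 lists with a tested member appear. Among those left out, solute carriers had 13 higher (14.4%) and 12 lower (13.3%) of 90. Splicing and RNA-binding, also left out, had 18 (16.8%) and 10 (9.35%) of 107. Counts are to be read against 18.2% higher and 13% lower among all loci, or 36.5% and 31.5% without control 2. Zinc finger Zfp loci were higher at 11 of 78 (14.1%) and lower at 15 (19.2%), and lysosome and autophagy at 4 (9.76%) and 8 (19.5%) of 41, both within 10 percentage points of those shares. Glycolysis and hypoxia had 3 higher (11.5%) and 5 lower (19.2%) of 26, but without control 2 these became 13 (50%) and 6 (23.1%), so the balance turned. Within this list, Pfkfb3, which makes the activator of phosphofructokinase, was at 8.40 and 6.48 FPKM in control and 11.5 and 11.3 after induction (0.56 ± 0.18). Collagens and matrix had 5 higher (10.2%) and 6 lower (12.2%) of 49, but without control 2 these became 5 (10.2%) and 29 (59.2%). The heme and NRF2 response had 0 higher and 1 lower (5%) of 20, and without control 2 these became 16 (80%) and 1 (5%). Proteasome subunits had 1 (2.44%) and 2 (4.88%) of 41, and without control 2 these became 24 (58.5%) and 3 (7.32%). Histones and chromatin modifiers had 12 and 12 of 67 (17.9% each), near the shares of all loci. The lower 12 include H13, taken in by its symbol, which is a histocompatibility gene and not a histone. Within this list Hdac3, a histone deacetylase, was at 40.4 and 38.9 FPKM in control, 27.3 with heme, and 28.7 and 27.1 after induction (-0.49 ± 0.089), with heme in the induction range. Heat shock proteins and chaperonins had 9 higher (18.4%) and 6 lower (12.2%) of 49, or 26 (53.1%) and 14 (28.6%) without control 2. Among the 6 was Hsp90aa1, the inducible cytosolic Hsp90, at 348 and 415 FPKM in control, 336 with heme, and 252 and 316 after induction (-0.43 ± 0.15). Iron handling had 4 of 11 higher (36.4%) and 1 lower (9.09%), or 7 (63.6%) and 3 (27.3%) without control 2. Among the 4 was Fbxl5, the iron-sensing ubiquitin ligase subunit, at 2.35 and 1.83 FPKM in control, 5.80 with heme, and 4.70 and 2.91 after induction. Its heme library lay above both induction libraries, on 2 of 12 annotated transcripts.

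Heme replicate 1 was set against each separated locus, sharing its controls with the induction comparison. Of the 1284 higher loci, the heme library lay at or past the nearer induction library at 373 (29%), between the groups at 279 (21.7%), between the controls at 403 (31.4%) and past the controls on the other side at 229 (17.8%). Of the 912 lower loci the counts were 403 (44.2%), 212 (23.2%), 175 (19.2%) and 122 (13.4%). With a gap of at least 1.5-fold, heme lay at or past the nearer induction library at 14 of 63 higher and 16 of 50 lower loci. It lay between the controls or past them on the other side at 26 of the 63 and 14 of the 50. Loci of the second kind include Vps26a, Trp53bp1, Ict1, Stoml2, Lsm12 and Gm26712, and loci of the first kind Skil, Prpf38b and H13. On FPM the log2 fold change of H13 was -0.23 in place of -0.82, and heme lay between the groups. For Prpf38b it was -0.44 in place of -1.03. A position set by controls that both comparisons use is a description of these 5 libraries.

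**Figure D5:**
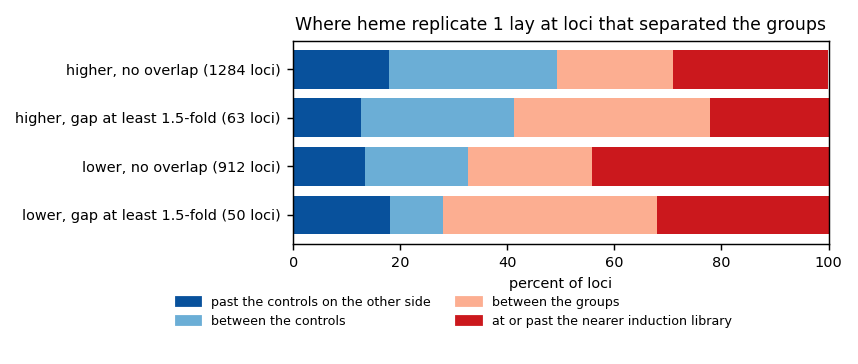
Each bar splits the loci that separated the groups, all of them or those with a gap of at least 1.5-fold, by where the single heme library lay, as percent of loci. Heme lay at or past the nearer induction library at 29% of the 1284 higher and 44.2% of the 912 lower loci.

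The authors' deposited table for neural induction gives a p-value per transcript, and 1088 transcripts at 739 loci are below 0.05 in it after Benjamini-Hochberg adjustment. Its fold changes follow replicate 1 against replicate 1. At 9415 transcripts of at least 1 FPKM in all 4 libraries, the log2 fold change in the authors' deposited table differed from the log2 FPKM ratio of replicates 1 by a median of 0.0196, from that of replicates 2 by 0.510 and from that of the group means by 0.248. The difference between the second replicates, which those fold changes do not follow, had the direction in the authors' deposited table at 438 of the 1088 transcripts. Of the 1088, 376 (34.6%) had both induction libraries past both controls in the table's direction. The locus sum separated in that direction for 255 (23.4%), and differed by at least 2-fold on FPKM + 1 in either direction for 22 (2.02%). The median absolute log2 fold change in the authors' deposited table was 4.95 per transcript for these. The median for their loci here was 0.13, on sums over transcripts, on both replicates and on log2(FPKM + 1), so these values are not on the same scale.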

How the data were processed

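RNA of control, heme-treated and neural induction cells was sequenced. The tools were HISAT2, StringTie and edgeR, with the build GRCm38 (mm10) and no versions, per the submitters' processing notes. The authors deposited FPKM and mean coverage (a signal) for each assembled transcript of each library, 15113 transcripts at 7171 loci. The table holds only transcripts whose FPKM has a variance above 1 over the 5 distinct libraries (lowest 1.00004), so weakly expressed or steady transcripts are missing from locus sums, and a transcript at that limit could differ between groups by at most 2 FPKM. The authors also deposited, per transcript, a p-value, a likelihood ratio score and a log2 fold change for neural induction against control. Heme replicate 2 is heme replicate 1 times 1.25 to 1.50 and was not used.

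Replicates were grouped by their labels. FPKM was summed over the rows of a locus and tested as log2(FPKM + 1) with limma 3.58.1 in R 4.3.3, at loci with at least 1 FPKM in at least 2 of 5 libraries. The fit held both controls, heme replicate 1 and both induction libraries, with 2 residual degrees of freedom and two-sided Benjamini-Hochberg adjustment over 7039 loci at 0.05. No count model was run, since FPKM are not counts and no counting interval can be given. The code was tested on simulated data. Named are loci that passed, up to 4 separated members per list by p, and 30 fixed genes. Also named are up to 12 loci per direction with a symbol (4 without), taken by fold change. These needed a gap at least the within-group difference and a mean of at least 5 FPKM in the higher group. A locus could therefore qualify through that group alone. A few loci under this rule are counted but not reported here by name. Members and the 51 lists were chosen with earlier results of these data known. Gene names stored as dates were restored (30), and Cyr61, Ctgf and Ict1 are older symbols in the table. Promoters are RefSeq's.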

Additional observations from a re-analysis of the deposited data

How the results depend on the processing

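The 1 limma call became 0 with a pseudocount of 0.1 FPKM, without the filter, without the heme library, on FPM (an alternative chosen after seeing the data) and without any 1 of the 4 libraries (range 0 to 0, on 1 residual degree of freedom fewer). It was kept with a 5 FPKM minimum and with libraries centred on their medians. With all 6 columns, which counts heme replicate 1 again, limma called 51. The log2 fold change of Gm26712 lay between -6.32 and -2.56 over its alternatives.

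The 1284 higher and 912 lower loci became 157 and 146 with a gap of at least 1.2-fold, and 2366 and 1907 over single transcripts. Without 1 library, where a locus is compared with fewer values, the counts ran from 2240 to 2995 and from 1639 to 2455. Of 2232 log2 fold changes of named loci under an alternative, 18 had the other sign, at 15 loci, 7 of them without control 2. The sign of Vim, Tubb3, Mki67, Col1a1, Tfrc, Ccnd1 and Cdkn1a turned without that library.

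Replicate numbers are shared between groups, but the labels give no pairing and same-numbered libraries did not deviate together (r = -0.0513 over 7039 loci). With the number as a block, limma called 2 loci, Gm26712 and Lsm12, with 239 at an unadjusted p below 0.05. Depth and 2 libraries per group limit all results, and a difference that did not pass is not shown to be absent.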

Other observations

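Some loci not named above had values that a closer look could take up. Slc45a4, a proton-coupled sugar transporter of the solute carrier family, was at 13.3 and 13.5 FPKM in control, 21.6 with heme, and 20.2 and 20.4 after induction (log2 fold change 0.57 ± 0.11, adjusted p = 0.930 in limma). Its controls and its induction libraries were each close together, and heme lay past induction. Atg9a, the membrane protein of early autophagosomes, was at 13.0 and 12.6 in control, 8.16 with heme, and 9.08 and 9.47 after induction (-0.43 ± 0.14). Farsa, a subunit of phenylalanyl-tRNA synthetase, was at 6.74 and 10.7 in control, 10.7 with heme, and 15.0 and 14.2 after induction (0.71 ± 0.24).

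The induction libraries disagreed on some genes. Gpx1, a selenium-dependent glutathione peroxidase, was at 48.1 and 35.6 FPKM in control, 35.5 with heme, and 18.5 and 71.2 after induction. Aen, an exonuclease induced by p53, was at 26.7 and 8.02 against 5.33 and 7.02. For Gpx1 the 2 induction libraries lay on opposite sides of the controls. None of the 5 listed selenoprotein loci separated the groups, where 31.2% of all loci did, and 5 loci are too few to set against that share. Txnip, a glucose-responsive regulator of thioredoxin, was at 12.7 and 20.3 after induction against 13.3 and 15.2. Cdkn1a, the p53 target p21, was at 31.0 and 62.1 in control and 30 and 33.4 after induction, so here the controls were the pair that disagreed.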
